A study of Homo sapiens with 6 samples.

Results

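Tc1/mariner transposons are DNA elements that move by cut and paste. In these tables they were the loci of class DNA whose family name starts with TcMar. Retrotransposons (LTR, LINE and SINE) and DNA transposons, the 4 classes of transposable element (TE) tested, had 723309 loci with at least 1 row in the 6 libraries. Of these, 21425 belonged to TcMar, and 10818 of these had fragments on their own strand, meaning that the transcript ran in the same direction as the element. The other 10607 were listed only on the opposite strand.

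An intact Tc1/mariner element carries 1 gene for a transposase, the enzyme that cuts the element out, between inverted repeats at its ends. It inserts at the dinucleotide TA, which is copied on insertion, so that an element is flanked by TA on each side. The human copies can no longer move and are annotated as relics. Mariner copies include HSMAR1, HSMAR2 and the hairpin-like MADE1, Tigger copies resemble the pogo element, and Kanga copies belong to the Tc2 family. Several human genes, among them SETMAR, CENPB and POGZ, grew out of such transposases.

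Polyadenylated RNA came from SW480, an established human colon adenocarcinoma cell line. The 3 control libraries came from cells transduced with a lentivirus for the fluorescent protein Clover, and the other 3 from cells transduced with one for Z18trunc, a shortened ZC3H18 (a nuclear protein that takes part in RNA surveillance). Both constructs used the CMV promoter, both kinds of cells were grown under antibiotic selection, and the study describes the lines as made in biological triplicate. These are bulk samples, in which fewer transcribing cells and less RNA per cell cannot be told apart. The comparison asks whether TcMar RNA differs when the truncated protein is present.

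Aligned fragments numbered 18226033 to 22463310 per library, so that a count of 0 allows 0.134 to 0.165 fragments per 1000000 aligned (CPM). ZC3H18 stood at 57.2 ± 5.39 transcripts per 1000000 (TPM) in Clover and 763 ± 31.2 TPM in Z18trunc cells (SD, n = 3 each), a level in which reads from the construct and from the cells' own gene cannot be told apart. Of 10 markers of colon epithelium, 8 had a mean TPM of at least 1, including EPCAM, KRT8 and CDX2, while CDX1 and LGR5 were listed at 0. Of the markers of other cell types, a mean TPM of at least 1 was reached by 2 of 5 for melanocytes (PMEL and MITF), 1 of 4 for leukocytes (CD68), 1 of 4 for fibroblasts (COL1A1) and 0 of 3 for endothelium. PTPRC, MLANA, TYR, DCN, PECAM1 and CDH5 were listed at 0 in every library, and the summed markers of these 4 lists lay between 0.229 and 4.94 TPM.

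The TcMar copies differed widely in divergence and size. The 21425 loci had a median length of 254 bases and a median divergence from their consensus of 17.9%. Tigger held 19107 loci, Mariner 1172 and Tc2 1084, while 26 loci were named only TcMar and 36 carried the uncertain name TcMar?. MADE1 copies had a median length of 79 bases and a divergence of 9.1%, while Tigger1 copies had a median length of 680 bases and a divergence of 12.9%. Sequence from hg38, the build of the tables, was available for every locus. The median GC content was 36.97% for TcMar and 41.0% for the 40645 loci of hAT, the other large group of cut-and-paste elements.

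The target site was visible in the sequence. TA stood directly before and directly after the annotated element in 6.76% of TcMar loci and in 0.273% of hAT loci. Many copies have lost an end, and the share was higher where the element was near full length. It reached 35.7% of the 157 MADE1 copies, 54.5% of the 22 MADE1 copies of exactly 80 bases, and 25.8% of the 163 Tigger1 copies of 2300 bases or more.

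A MADE1 copy of 79 bases at chr3:195699413-195699491 (hg38, + strand) has TA directly before it but TG directly after it. It lies inside the microRNA gene MIR570, within the span of its noncoding host gene MIR570HG, and was chosen for its sequence after its values were seen. It is printed whole with the 2 flanking bases on each side, in capitals where they read TA.
MADE1 in MIR570HG: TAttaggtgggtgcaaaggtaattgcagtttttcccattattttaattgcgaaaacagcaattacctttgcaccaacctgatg

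The first 28 bases of this copy and the reverse complement of its last 28 bases match at 25 positions, shown in capitals in both lines. Over 78 MADE1 copies of 78 to 82 bases, the 37 outermost bases of the arms matched at a median of 71.6% of positions.
First 28 bases: TtAGGTgGGTGCAAAGGTAATTGCaGTT
Last 28 bases, reversed and complemented: TcAGGTtGGTGCAAAGGTAATTGCtGTT

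The hairpin of the microRNA miR-570 covers this whole copy in the RefSeq table (GRCh38.p14). Its mature arms are given below with bases 2 to 8, the seed, in capitals. Of 1562 hairpins in that table, 8 overlapped a TcMar member. Besides MIR570 in MADE1 these were MIR548AR in another MADE1, MIR649 at MER8, MIR5706, MIR4477A and MIR4477B in Tigger1, MIR3611 in Tigger7, and MIR5094, which shared 9 bases with a MamRep137 copy. A polyA library counts fragments over the copy and does not measure the mature microRNA.
hsa-miR-570-5p: aAAGGUAAuugcaguuuuuccc
hsa-miR-570-3p: cGAAAACAgcaauuaccuuugc

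MADE1 is known as a short relative of the longer mariner HSMAR1, and their ends were compared. The reverse complement of the last 20 bases of the HSMAR1 copy in FGD5-AS1, the TcMar locus with the most fragments, matched the first 20 bases of this MADE1 at 15 positions, in capitals below. Of 33 HSMAR1 copies of 1200 bases or more, 18 matched at 15 or more of the 20 bases, and none of 58 HSMAR2 copies of 1200 bases or more or of 163 Tigger1 copies of 2300 bases or more did.
MADE1 in MIR570HG, first 20 bases: TTAGGTgGgTGCAAAggTaA
HSMAR1 in FGD5-AS1, last 20 bases reversed and complemented: TTAGGTtGaTGCAAAaaTtA

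Most TcMar loci with any signal were close to the detection limit. Of the 10818 loci with own-strand fragments, 4290 (39.7%) had at most 1 fragment in the 6 libraries together, 802 had a value in all 6, and 427 had at least 30 estimated counts in all. Those 427 loci held 63.1% of the own-strand counts, and the 10 most abundant loci held 12.3%. Between 3332 and 4626 loci were detected per library, and 52.0% to 56.2% of the loci detected in a library had 1 fragment there. The lowest number belonged to a Clover library and the highest to Z18trunc 3. The 8 most abundant loci all lay in exons of host genes.

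In summed own-strand RNA, TcMar stood higher in every Z18trunc library than in any Clover library. The sums were 757, 706 and 724 CPM in Clover 1 to 3 and 815, 856 and 911 CPM in Z18trunc 1 to 3. The groups did not overlap, and the means were 729 ± 26.2 and 860 ± 48.2 CPM (SD, n = 3 each), a log2 difference of 0.24. An exact two-sided permutation test gave p = 0.1, the smallest that 3 against 3 libraries allow, so no difference of sums could pass 0.05.

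Fragments on the opposite strand, measured in the same way, were also higher. They summed to 643 ± 49.3 CPM in Clover and 772 ± 50.6 CPM in Z18trunc, a log2 difference of 0.26 without overlap (exact permutation p = 0.1, n = 3 each). The share of TcMar counts on their own strand was 53.2% ± 1.09 in Clover and 52.7% ± 0.246 in Z18trunc, close to an even split. Subfamilies departed from this. HSMAR1 had 94.5% of its counts on its own strand in Clover, while Kanga1 had 30.7%.

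hAT and the remaining TE loci were higher as well. hAT summed to 1311 ± 40.1 CPM in Clover and 1496 ± 63.9 CPM in Z18trunc (log2 0.19), and all TE loci other than TcMar to 23139 ± 669 and 25997 ± 1489 CPM (log2 0.17). The log2 ratio of TcMar to hAT counts was -0.84, -0.88 and -0.82 in Clover 1 to 3 and -0.82, -0.80 and -0.78 in Z18trunc 1 to 3. These ratios did not overlap, but the highest Clover and the lowest Z18trunc value were close (-0.821 against -0.817), and the difference of the means was 0.05 (exact permutation p = 0.1, n = 3 each). Against all other TE loci the log2 ratio was -4.99 ± 0.07 in Clover and -4.92 ± 0.0018 in Z18trunc, a difference of 0.07 without overlap (exact permutation p = 0.1, n = 3 each). Clover 2 was the lowest library of this ratio at -5.07, and without it the difference was 0.03.

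**Figure D1:**
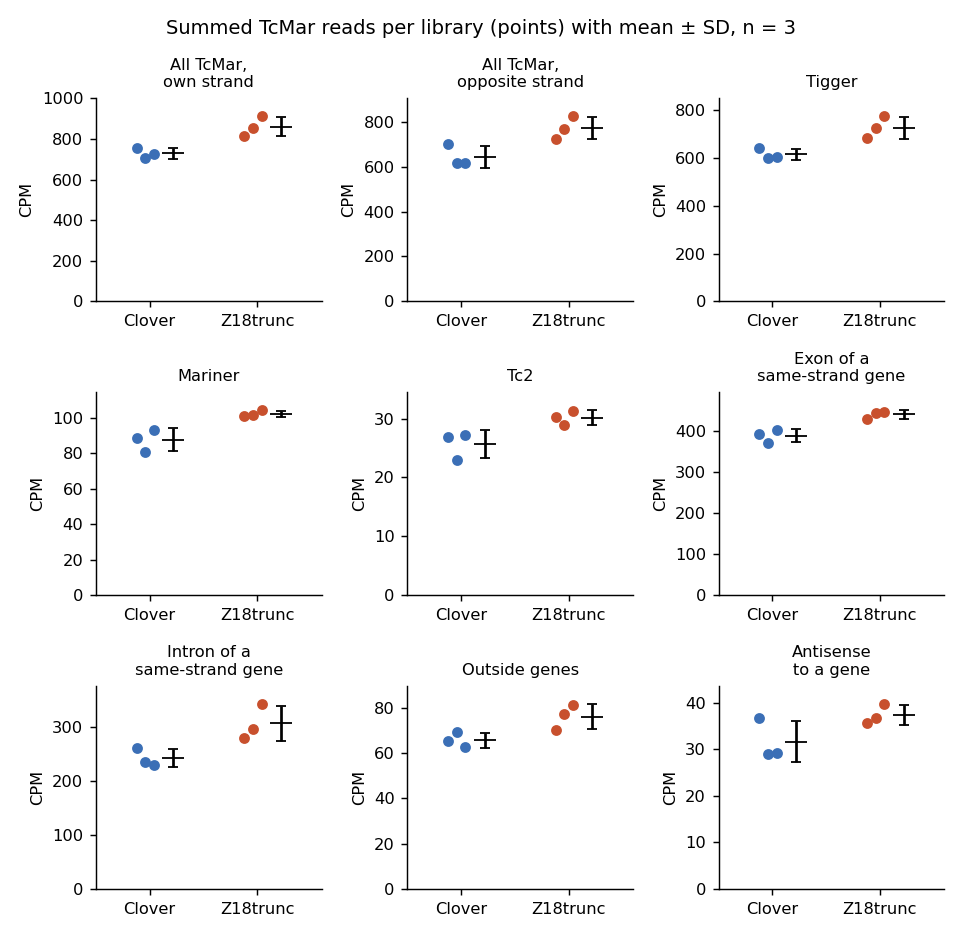
Summed TcMar fragments in CPM (vertical axes from 0) in each library, with the mean and SD of 3 libraries beside the points, for both strands, the 3 large families and 4 positions relative to genes. Clover (blue) and Z18trunc (orange) libraries are separate in every panel except for loci antisense to a gene.

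The 3 large families showed the same order of groups. Tigger summed to 615 ± 22.4 CPM in Clover and 727 ± 45.7 CPM in Z18trunc (log2 0.24). Mariner summed to 88.8, 80.8 and 93.3 CPM in Clover and 101, 102 and 104 CPM in Z18trunc (log2 0.22). Tc2 summed to 26.9, 23.0 and 27.2 CPM in Clover and 30.3, 28.9 and 31.3 CPM in Z18trunc (log2 0.23). None of the 3 overlapped between groups, with an exact permutation p of 0.1 each (n = 3 per group), or 0.167 after adjustment over 5 families. The 2 small families held under 1 CPM in every library and overlapped. Per kilobase of annotated element, Mariner stood above the others, at 0.212 CPM per kb in Clover against 0.0992 for Tc2 and 0.0839 for Tigger. The 10 most abundant loci of each family held 56.0% of Mariner, 54.7% of Tc2 and 12.3% of Tigger counts. Without the 10 most abundant TcMar loci, the log2 difference was 0.15 for Mariner, 0.23 for Tc2 and 0.26 for Tigger.

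Copies were also split by divergence from the consensus, with 3 classes chosen for description. The sum of copies under 15% divergence was 248 ± 11.2 CPM in Clover and 303 ± 21.7 CPM in Z18trunc (log2 0.29). For copies of 25% divergence or more it was 226 ± 11.5 and 258 ± 7.76 CPM (log2 0.19), and the class between them had a log2 difference of 0.23. No class overlapped between groups, and differences between the classes were not tested.

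By position, the larger part of the TcMar RNA lay in exons of a gene on the same strand, although few of the loci did. Exonic loci were 9.50% of the loci with own-strand counts and held 53.5% ± 1.85 of the counts in Clover and 51.3% ± 1.86 in Z18trunc. Within exons, 3′ untranslated regions alone held 38.9% of TcMar counts in Clover and coding sequence 3.96%. Intronic loci were 68.5% of these loci and held 33.2% ± 1.36 of the counts in Clover and 35.5% ± 1.77 in Z18trunc. Loci outside genes held 9.03% and loci only antisense to a gene 4.33% in Clover.

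Loci inside introns had the widest gap between the groups. They summed to 261, 235 and 230 CPM in Clover and 279, 296.2 and 342 CPM in Z18trunc, without overlap (log2 0.34). Exonic loci summed to 390 ± 15.5 and 441 ± 10.4 CPM (log2 0.18) and loci outside genes to 65.7 ± 3.29 and 76.1 ± 5.52 CPM (log2 0.21), each without overlap. Differences between positions were not tested. The exact permutation p was 0.1 for each of these 3 (n = 3 per group) and 0.133 after adjustment over 4 positions. Antisense loci stood at 36.7, 29.0 and 29.1 CPM in Clover and 35.7, 36.7 and 39.7 CPM in Z18trunc, and these overlapped (exact permutation p = 0.2, n = 3 each). Intronic loci of hAT had a log2 difference of 0.35 and those of all other TE 0.27, so the gap in introns was not limited to TcMar. In introns the log2 ratio of TcMar to hAT was -0.50 ± 0.05 in Clover and -0.51 ± 0.04 in Z18trunc, and overlapped. In exons it was -1.03 ± 0.05 and -0.95 ± 0.02, without overlap (exact permutation p = 0.1, n = 3 each).

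Loci free of any annotated exon on either strand were higher in both directions. They summed to 314 ± 19.6 CPM in Clover and 393 ± 38.8 CPM in Z18trunc on their own strand (log2 0.32), and to 290 ± 31.0 and 363 ± 37.02 CPM on the opposite strand (log2 0.33). Neither pair overlapped (exact permutation p = 0.1, n = 3 each). Outside both genes and exons, the own-strand sum was 53.3 ± 2.005 CPM in Clover and 63.1 ± 4.64 CPM in Z18trunc without overlap (log2 0.24). On the opposite strand it was 43.8 ± 3.64 and 50.2 ± 5.62 CPM (log2 0.20), and the groups overlapped (exact permutation p = 0.2, n = 3 each). The log2 ratio of own to opposite strand differed by 0.045 between groups, with overlap (exact permutation p = 0.6, n = 3 each).

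Tested in single subfamilies with the edgeR quasi-likelihood test, adjusted over all 894 subfamilies, 2 of 72 TcMar subfamilies rose in Z18trunc and none fell, Tigger1 and Kanga1. The background was 1.9% of all subfamilies called, all of them higher. At an unadjusted p under 0.05, 22 TcMar subfamilies were higher, or 30.6%, against 24.6% of all subfamilies. A log2 change above 0 was seen in 70 of the 72, against 85.1% of all, with a median of 0.26 against 0.21. This split moved with the scaling. With TMM scaling 46 were higher and 26 lower, against 457 and 437 of all 894 subfamilies. With scaling to opposite-strand TE counts 33 were higher and 39 lower, against 315 and 579 of all. Under either scaling no TcMar subfamily was called, against 0.336% and 0.112% of all subfamilies.

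Tigger1, the most abundant TcMar subfamily with 2523 copies, stood at 101, 87.1 and 89.9 CPM in Clover and 108, 122 and 129 CPM in Z18trunc. The highest Clover library lay below the lowest Z18trunc library. The means were 92.7 ± 7.41 and 120 ± 10.9 CPM, and edgeR gave a log2 change of 0.37 ± 0.09 (SE) with an adjusted p of 0.0391. The difference did not rest on a few copies. Without its most abundant copy, which lies in TIGD1, the log2 difference of the sums was 0.37, and without its 10 most abundant copies it was again 0.37. Opposite-strand Tigger1 fragments rose too, from 70.5 ± 4.23 to 90.9 ± 11.1 CPM, with a log2 change of 0.37 and an adjusted p of 0.00399 by edgeR over opposite-strand sums. Outside genes, Tigger1 summed to 8.41, 8.64 and 8.02 CPM in Clover and 10.0, 12.5 and 13.5 CPM in Z18trunc. The Tigger1 call did not hold with TMM scaling (log2 0.16, adjusted p = 0.35 by edgeR) or opposite-strand scaling (log2 0.08, adjusted p = 0.808 by edgeR). Nor did it hold with DESeq2 (log2 0.16, adjusted p = 0.708 by DESeq2) or a replicate block (log2 0.37, adjusted p = 0.0838 by edgeR). It was also lost without Clover 1, Clover 2, Clover 3 or Z18trunc 2, with an adjusted p of 0.0948, 0.118, 0.154 and 0.0677 by edgeR.

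Kanga1, a small Tc2 subfamily with 84 copies, stood at 2.78, 2.35 and 3.77 CPM in Clover and 4.73, 5.49 and 4.44 CPM in Z18trunc. The groups did not overlap, and edgeR gave a log2 change of 0.72 ± 0.19 (SE) with an adjusted p of 0.0425. One copy in the 3′ untranslated region of SMIM13 held 73.4% of the Kanga1 counts. Without it the sums were 0.887 ± 0.222 CPM in Clover and 1.20 ± 0.371 CPM in Z18trunc, which overlapped (exact permutation p = 0.4, n = 3 each). On the opposite strand Kanga1 stood at 6.67 ± 0.482 and 6.53 ± 1.1 CPM. The Kanga1 call did not hold with TMM scaling (adjusted p = 0.291 by edgeR) or with uniquely mapped counts (adjusted p = 0.0565 by edgeR), nor without Clover 1, Clover 2 or Z18trunc 2 (adjusted p = 0.133, 0.132 and 0.0951 by edgeR). The log2 change under these 5 settings lay between 0.51 and 0.66. The Kanga1 call was also lost with opposite-strand scaling (log2 0.43, adjusted p = 0.39 by edgeR) and with DESeq2 (log2 0.51, adjusted p = 0.655 by DESeq2). With a replicate block it was lost too (log2 0.73, adjusted p = 0.0604 by edgeR).

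The other named subfamilies did not pass the test. HSMAR1 came nearest, at 27.8, 24.9 and 28.4 CPM in Clover and 35.3, 36.4 and 31.2 CPM in Z18trunc (log2 0.34 ± 0.11 SE, adjusted p = 0.0741 by edgeR). Its groups did not overlap, but the copy in FGD5-AS1 held 51.8% of its counts, and without that copy the groups overlapped, at 14.0 ± 0.315 and 15.5 ± 1.30 CPM. HSMAR1 passed with uniquely mapped counts (adjusted p = 0.0411 by edgeR) and without Z18trunc 3 (adjusted p = 0.00758 by edgeR). MADE1 stood at 2.98, 2.77 and 2.50 CPM in Clover and 3.30, 3.13 and 4.38 CPM in Z18trunc, without overlap (log2 0.39 ± 0.19 SE, adjusted p = 0.208 by edgeR). HSMAR2, MER2 and MARNA overlapped between groups, with log2 values of 0.23, 0.14 and 0.10. Intronic MER2 copies summed to 15.2, 11.99 and 11.3 CPM in Clover and 15.5, 17.3 and 20.8 CPM in Z18trunc, without overlap (log2 0.48), while its exonic copies stood at 22.9 ± 0.359 and 22.5 ± 0.740 CPM and overlapped, and the difference between these positions was not tested. Intronic HSMAR2 copies summed to 2.89 ± 0.658 and 4.14 ± 0.480 CPM, also without overlap, and intronic MARNA copies to 4.34 ± 0.754 and 4.44 ± 0.738 CPM, with overlap. Tigger19b, the most abundant subfamily per kilobase among the named, had a log2 value of 0.12 with an SE of 0.10.

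**Figure D2:**
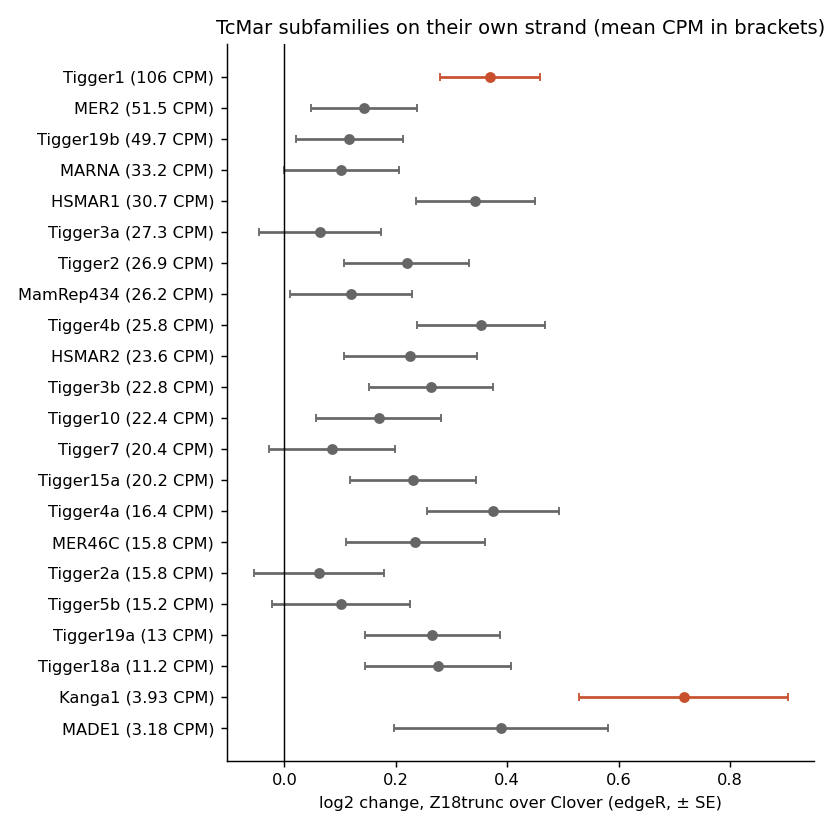
Log2 change of own-strand sums (horizontal axis, edgeR estimate with its SE) for the 20 most abundant TcMar subfamilies, Kanga1 and MADE1, ordered by mean CPM, with those past the adjusted threshold in orange. All 22 estimates lie above 0, from 0.06 for Tigger2a and Tigger3a to 0.72 for Kanga1, and only Tigger1 and Kanga1 passed.

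No single TcMar locus passed the edgeR test adjusted over all 12453 tested TE loci, of which 0.201% passed. Without adjustment, a p under 0.05 was reached by 46 TcMar loci with higher and 6 with lower values in Z18trunc, or 10.8% and 1.41%, against 8.17% and 1.77% of all tested loci. DESeq2 also called none, with an adjusted p for 84 of the 427. Of all 12453 tested loci it called 11, or 0.0883%, with an adjusted p for 2072. By DESeq2, 6 higher and 4 lower TcMar loci reached an unadjusted p under 0.05. These were 1.41% and 0.937%, against 1.42% and 2.30% of all tested loci. Of the 427 estimates, 297 lay above 0, against 64.5% of all tested loci, with a median log2 change of 0.25 against 0.17. With TMM scaling 241 lay above 0 and 186 below, against 6241 and 6212 of all tested loci. With scaling to opposite-strand TE counts 197 lay above and 230 below, against 5177 and 7276 of all. TMM scaling moved the median of all tested loci from 0.17 to 0.0014 on the log2 scale, and the TcMar median to 0.07.

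The tested loci were also counted by position. Of 124 tested intronic loci, 14 were higher at an unadjusted p under 0.05 (11.3%, against 10.3% of all intronic TE loci), with a median log2 change of 0.36, and 4 were lower (3.23%, against 1.24%). Of 243 exonic loci, 24 were higher (9.88%, against 6.84%), with a median of 0.19, and 2 were lower (0.823%, against 2.16%). Of 42 loci outside genes, 3 were higher (7.14%, against 8.49%). Of 18 antisense loci, 5 were higher (27.8%, against 9.66%). No locus of the last 2 positions was lower at that p, against 1.45% of all TE loci outside genes and 1.77% of all antisense ones. These counts rest on few loci and are given as a description.

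Ranked by FPKM, as fragments per kilobase of covered stretch, 225 of the 10818 own-strand loci lay higher in all 3 Z18trunc libraries than in any Clover library and 91 lay lower, or 2.08% and 0.841%, against 1.92% and 1.01% of all own-strand TE loci. Together these 316 loci were 2.92% of TcMar, against 2.93% of all own-strand TE loci and 2.84% of hAT. Among the 427 loci with at least 30 counts, 59 did not overlap, or 13.8% against 13.6% of all such TE loci, and among the 802 with a value in all 6 libraries 95 did not, or 11.8% against 11.6%. The share of separated TcMar loci was thus near the background.

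The TcMar loci with the most fragments sat in exons, and HSMAR1 in FGD5-AS1 (chr3:14945073-14946290, hg38, - strand) stood first. FGD5-AS1 is a long noncoding RNA gene. The copy is 1218 bases long with 9.6% divergence and has TA directly after its last base. It stood at 14.0, 10.5 and 14.6 CPM in Clover and 19.6, 19.6 and 17.1 CPM in Z18trunc, so that the groups did not overlap. EdgeR gave a log2 change of 0.53 ± 0.13 (SE) with an adjusted p of 0.0844, just short of the threshold. The host gene stood at 24.7 ± 3.58 TPM in Clover and 34.5 ± 3.99 TPM in Z18trunc, a log2 difference of 0.47 in log2(TPM + 1) (adjusted p = 0.0903 by limma). The first 300 and last 60 bases of the copy are shown because it is the most abundant locus, the latter with its flanking TA in capitals.
HSMAR1 in FGD5-AS1, first 300 bases: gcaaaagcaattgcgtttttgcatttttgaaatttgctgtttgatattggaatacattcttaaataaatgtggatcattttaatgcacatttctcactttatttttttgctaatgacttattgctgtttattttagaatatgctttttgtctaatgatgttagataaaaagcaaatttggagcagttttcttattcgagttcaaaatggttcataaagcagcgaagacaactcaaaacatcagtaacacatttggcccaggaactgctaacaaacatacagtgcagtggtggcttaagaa
HSMAR1 in FGD5-AS1, last 60 bases: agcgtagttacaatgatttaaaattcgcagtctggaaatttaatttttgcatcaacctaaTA

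A second long mariner, HSMAR2 in THAP9-AS1 (chr4:82893709-82894962, hg38, - strand), had 9.93, 8.83 and 11.8 CPM in Clover and 10.8, 11.0 and 15.3 CPM in Z18trunc. These values overlapped, and Z18trunc 3 was the highest library. THAP9-AS1 is a noncoding RNA gene, and SEC31A, a coat protein gene of vesicle transport, spans the same position on the same strand. The start of this copy is shown beside the HSMAR1 copy for comparison, with no TA at either flank.
HSMAR2 in THAP9-AS1, first 60 bases with 2 flanking bases: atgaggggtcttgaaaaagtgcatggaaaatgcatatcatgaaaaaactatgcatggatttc

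The other 6 of the 8 most abundant loci lay in 3′ untranslated regions. Tigger19b in BIRC5 (chr17:78224100-78224228), in the gene of the apoptosis inhibitor survivin, had 13.9 ± 2.31 CPM in Clover and 13.5 ± 1.59 CPM in Z18trunc. Tigger10 in TOMM20 (chr1:235109785-235110109), a mitochondrial import receptor gene, had 8.16 ± 0.566 and 9.91 ± 0.400 CPM without overlap (log2 0.28, adjusted p = 0.498 by edgeR). Tigger3a in FAM83D (chr20:38952764-38952941) was the only one of the 8 lower without overlap, at 10.2, 12.2 and 10.9 CPM in Clover and 8.996, 10.1 and 8.38 CPM in Z18trunc (log2 -0.28, adjusted p = 0.497 by edgeR). FAM83D itself stood at 166 ± 12.6 and 167 ± 4.79 TPM. Tigger4b in SEPTIN10, Tigger19b in KRT74 and Tigger5b in SREBF2, the gene of a sterol-regulated transcription factor, overlapped between groups, with log2 values of 0.22, -0.07 and 0.15.

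Of the loci with the smallest unadjusted p among those higher without overlap, 4 more were named. MADE2 in PTPN14 (chr1:214353893-214353967), in the 3′ untranslated region of a tyrosine phosphatase gene, had 0.445, 0.261 and 0.713 CPM in Clover and 1.29, 1.21 and 1.38 CPM in Z18trunc (log2 1.44 ± 0.37 SE, adjusted p = 0.092 by edgeR). Separation of the groups was part of the rule that named these 4 loci and is not a result. MARNA in MOB1B (chr4:70985311-70985511), a Hippo pathway gene, had 0.247, 0.105 and 0.153 CPM in Clover, values near or below the detection limit of a library, and 0.445, 0.658 and 0.810 CPM in Z18trunc (log2 1.80 ± 0.55 SE, adjusted p = 0.232 by edgeR). Kanga1 in SMIM13 (chr6:11134902-11135549) had 1.91, 1.67 and 2.65 CPM in Clover and 3.74, 4.50 and 2.81 CPM in Z18trunc (log2 0.82 ± 0.22 SE, adjusted p = 0.126 by edgeR). SMIM13, a small membrane protein gene, stood at 6.42 ± 0.551 and 8.31 ± 0.302 TPM, a log2 difference of 0.33 in log2(TPM + 1).

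The fourth, Tigger1 in an intron of U2SURP (chr3:143029247-143031760, hg38, + strand), is a nearly complete copy of 2514 bases with TA on each side. U2SURP encodes a protein of the U2 small nuclear ribonucleoprotein. The copy had 2.58, 1.36 and 2.39 CPM in Clover and 3.83, 2.91 and 4.001 CPM in Z18trunc (log2 0.76 ± 0.22 SE, adjusted p = 0.193 by edgeR). The host gene stood at 16.1 ± 2.52 and 21.9 ± 4.42 TPM, a log2 difference of 0.41 in log2(TPM + 1). Both ends are shown with the flanking TA in capitals, as an example of the subfamily that rose.
Tigger1 in U2SURP, first 60 bases: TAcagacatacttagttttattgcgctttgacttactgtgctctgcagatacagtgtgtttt
Tigger1 in U2SURP, last 60 bases: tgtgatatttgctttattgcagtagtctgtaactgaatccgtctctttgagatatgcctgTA

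Of the loci lower without overlap, 4 besides Tigger3a had the smallest unadjusted p. Tigger7 in an intron of SLCO4A1 (chr20:62670320-62670542), an organic anion transporter gene, had 3.47, 3.55 and 3.82 CPM in Clover and 2.18, 2.80 and 2.67 CPM in Z18trunc (log2 -0.51 ± 0.20 SE, adjusted p = 0.382 by edgeR). SLCO4A1 stood at 133 ± 7.49 and 134 ± 5.29 TPM. HSMAR1 in an exon of GLCE (chr15:69196246-69197521), the gene of a heparan sulfate epimerase, had 2.89 ± 0.401 CPM in Clover and 2.20 ± 0.191 CPM in Z18trunc (log2 -0.40, adjusted p = 0.535 by edgeR). GLCE went the other way, from 7.23 ± 1.06 to 10.6 ± 0.783 TPM (log2 0.50 in log2(TPM + 1), adjusted p = 0.0783 by limma), and neither difference passed. Tigger1 in YARS1 and Tigger2a in KCNQ1-AS1 had 30 and 39 counts in all, most of them in Clover, and log2 values of -1.45 and -1.17.

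The MADE1 copy over MIR570 had 76 own-strand counts. It stood at 0.356, 0.993 and 0.102 CPM in Clover and 0.802, 0.713 and 0.762 CPM in Z18trunc, and the groups overlapped (log2 0.67 ± 0.47 SE, adjusted p = 0.693 by edgeR). Clover 2 was the highest library and Clover 3 the lowest. The log2 value was 1.67 without Clover 2 and 0.20 without Clover 3.

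**Figure D3:**
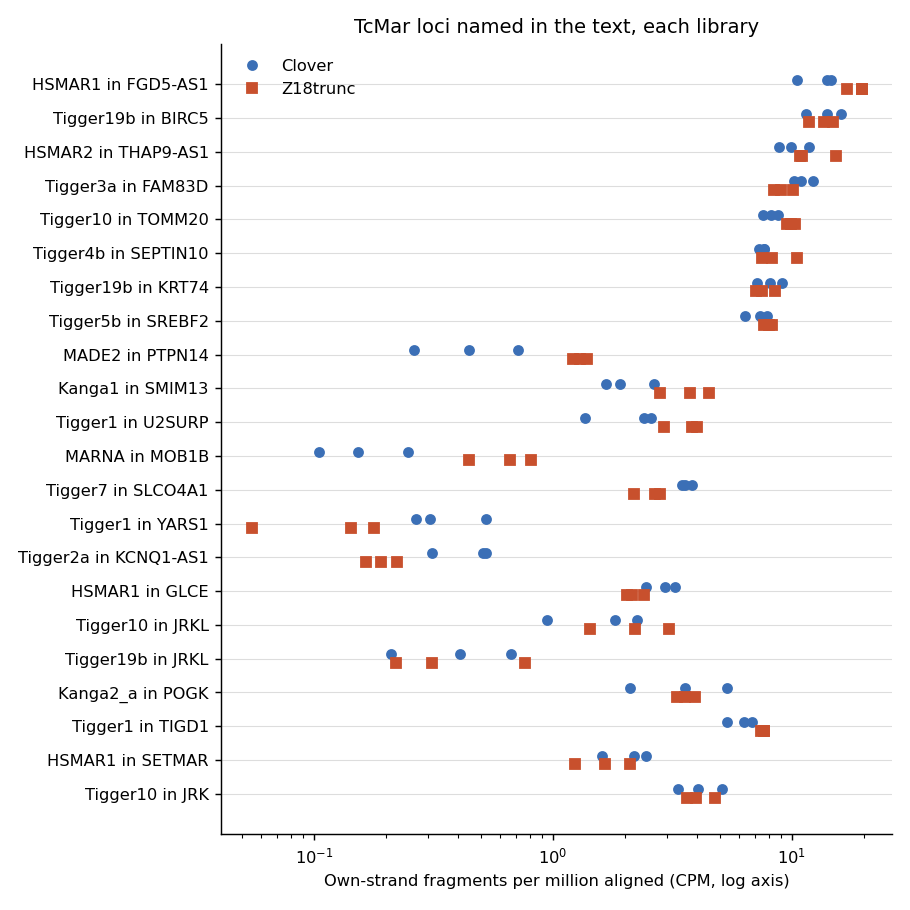
Own-strand fragments in CPM (log axis) of the 22 TcMar loci named by rule, with 1 point per library, Clover as blue circles and Z18trunc as orange squares. HSMAR1 in FGD5-AS1 has the highest mean, and the widest separations, for MADE2 in PTPN14 and MARNA in MOB1B, lie at or below 1.4 CPM. Both of these loci were picked for having no overlap, and MARNA in MOB1B has 49.55 counts in all.

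Tested loci were set beside the gene that held them on the same strand, where exactly 1 such gene was tested. For 223 exonic loci in 186 genes, the median log2 change was 0.19 for the loci and 0.26 for their genes, and 107 of the loci lay above their gene. For 104 intronic loci in 86 genes, the medians were 0.42 and 0.23, and 69 lay above their gene. Across loci, Spearman's rho between locus and gene was 0.25 in exons and 0.23 in introns. Loci in 1 gene share its transcript, and the 2 values come from the same libraries but different scales, CPM for loci and log2(TPM + 1) for genes.

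**Figure D4:**
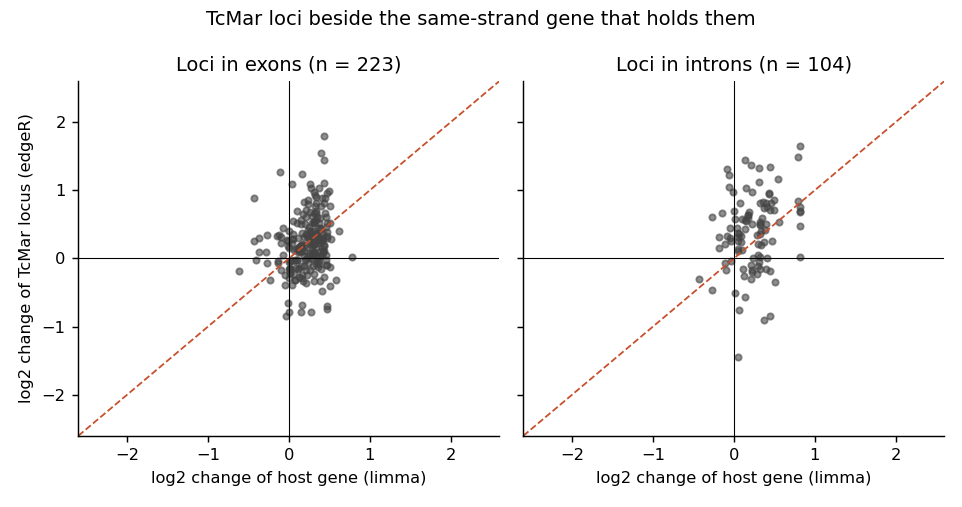
Log2 change of each tested TcMar locus (vertical axis, edgeR on counts) against that of its same-strand host gene (horizontal axis, limma on log2(TPM + 1)), for 223 exonic and 104 intronic loci, with the dashed line where both are equal. Exonic loci fall on both sides of the line, while 69 of the 104 intronic loci lie above it.

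Genes descended from TcMar transposases were measured as TPM. Of 13 such genes 10 had a mean TPM of at least 1 and were tested with limma on log2(TPM + 1), which understates changes of low genes. None passed, against 0.015% of all 13300 genes tested. Of the 10 estimates, 4 lay above 0 and 6 below, with a median of -0.03 against 0.11 over all genes. At an unadjusted p under 0.05, 1 of the 10 was higher, POGZ, and none lower, against 25.6% of all genes higher and 386 genes lower. These counts moved with the scaling. After quantile normalization, 12.8% of all genes were higher and 1448 genes lower at that p, with a median of -0.0060. Of the 10, none was then higher and TIGD5 was lower (log2 -0.28, adjusted p = 0.195 by limma), with a median of -0.13.

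POGZ, a chromatin regulator with a pogo-type domain, had 13.9, 12.8 and 15.5 TPM in Clover and 16.1, 19.1 and 17.95 TPM in Z18trunc. It was the only one of the 13 whose groups did not overlap (log2 0.31 ± 0.10 SE, adjusted p = 0.106 by limma), and its log2 difference was 0.15 after quantile normalization. CENPB, the centromere protein that binds alpha satellite DNA, was the most highly expressed, at 116 ± 5.79 and 115 ± 3.33 TPM. POGK, which joins a KRAB domain to a pogo-derived one, stood at 17.4 ± 3.04 and 19.9 ± 0.745 TPM. SETMAR, the fusion of a histone methyltransferase with an HSMAR1 transposase, stood at 3.60 ± 0.925 and 2.85 ± 0.136 TPM (log2 -0.24, adjusted p = 0.341 by limma). JRK and JRKL stood at 8.02 ± 0.937 and 4.18 ± 1.25 TPM in Clover and 6.18 ± 2.79 and 5.19 ± 1.06 TPM in Z18trunc.

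Among the TIGD genes, which carry Tigger transposase sequence, TIGD5 was the highest at 10.8 ± 0.0696 and 10.2 ± 1.15 TPM. TIGD6 had 2.39 ± 0.178 and 2.97 ± 0.408 TPM, and TIGD3 had 3.82 ± 1.33 and 3.60 ± 0.804 TPM. TIGD2, TIGD4 and TIGD7 had a mean TPM under 1 and were not tested. TIGD1 had 2.49, 1.90 and 2.30 TPM in Clover and 2.91, 0 and 2.93 TPM in Z18trunc, with Z18trunc 2 listed at 0. In that library the Tigger1 copy that holds its coding sequence had 7.63 CPM, so the 0 of the gene table did not come with an absence of fragments. Without Z18trunc 2, the TIGD1 difference changed from -0.37 to 0.28 in log2(TPM + 1).

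**Figure D5:**
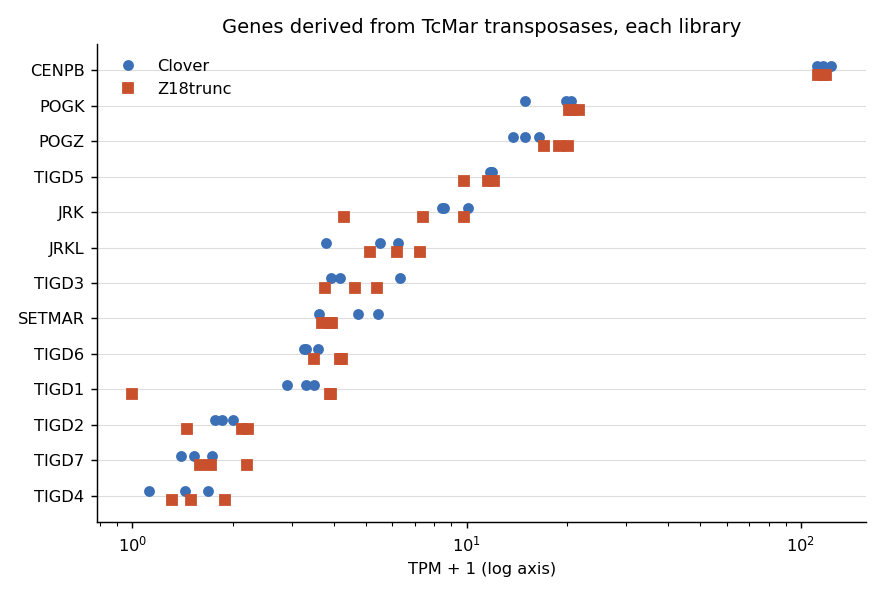
TPM + 1 (log axis) of the 13 genes derived from TcMar transposases, with 1 point per library, Clover as blue circles and Z18trunc as orange squares, ordered by their Clover mean. Only POGZ is separate between groups, and TIGD1 is listed at 0 in Z18trunc 2.

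The transposon loci inside these genes were counted apart from the genes. Tigger1 in the coding sequence of TIGD1 (chr2:232547906-232550277), with 6.9% divergence, had 6.81, 5.33 and 6.32 CPM in Clover and 7.66, 7.63 and 7.43 CPM in Z18trunc, without overlap (log2 0.30, adjusted p = 0.512 by edgeR). HSMAR1 in the coding sequence of SETMAR (chr3:4316073-4317322), with 5.3% divergence, had 2.08 ± 0.437 and 1.66 ± 0.428 CPM (log2 -0.31, adjusted p = 0.745 by edgeR). Kanga2_a in POGK had 3.67 ± 1.63 and 3.59 ± 0.314 CPM, and Tigger10 in JRK had 4.16 ± 0.895 and 4.12 ± 0.592 CPM. In JRKL, the coding Tigger10 copy had 1.67 ± 0.664 and 2.22 ± 0.812 CPM, and a Tigger19b copy in the 3′ untranslated region had 0.428 ± 0.230 and 0.431 ± 0.290 CPM. The groups overlapped at each of these loci except the one in TIGD1.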

How the data were processed

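Members, lists and tests were chosen with earlier results of these data known. Sample titles gave the groups and the replicate numbers. The authors trimmed reads with Cutadapt 4.6 (per the labels' processing notes), mapped stranded polyA libraries to hg38 and ran SQuIRE. The deposited tables hold, per locus and strand, uniquely mapped whole-number counts, estimated counts in which multiply mapped fragments were shared by expectation maximization, and FPKM over the covered stretch. The deposited gene tables hold TPM, in the layout of StringTie, and no counts.

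Estimated counts were rounded, divided by aligned fragments for CPM, or tested with the edgeR 4.0.16 quasi-likelihood test in R 4.3.3. A locus, or the sum over a subfamily, entered with 30 counts or more, with aligned fragments as library size, no further scaling and Benjamini-Hochberg adjustment over all loci or subfamilies of 4 classes. This keeps a shift of all TE RNA in each value. Sums were compared by exact two-sided permutation tests. Genes whose mean TPM reached 1 were tested with limma 3.58.1 on log2(TPM + 1), a pseudocount of 1. Missing FPKM values were set to 0, as in the study. Positions relative to genes used the deposited gene spans, GENCODE 44 exons and bedtools 2.31.1. Sequences came from the hg38 FASTA and RefSeq.

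Named loci were the 8 most abundant, the 5 higher and 5 lower with the smallest unadjusted p and no overlap, and tested loci in exons of TcMar-derived genes (1 locus met 2 rules in each direction). Named subfamilies were the called ones, the 5 most abundant, MADE1, HSMAR1, HSMAR2 and Tigger1. Tested on simulated data of the Z18trunc and Clover contrast, the fit of 12453 loci called 20% of 100 loci changed by 1 log2 unit and 68% of 100 changed by 2. The subfamily fit over 894 subfamilies called 85% and 100%, and the gene fit over 13300 genes called 90% of 200. False calls were 8.33% of the calls for loci, 2.63% for subfamilies and 5.76% for genes. The simulated data held no shift shared by all features. Replicates of a group differed by more than counting noise (chi-square per degree of freedom 1.65 to 1.94). Limits for a count of 0 use 3 counts and cover counting error only, since no molecular identifiers were used. Between 99.6% and 99.8% of ribosomal RNA repeat counts lay on their own strand. Alternatives were TMM scaling, scaling to opposite-strand TE counts outside exons, DESeq2 1.42.0, count minimums of 10, 100 and none, uniquely mapped counts, a replicate block, another pseudocount, quantile normalization and leaving out each library.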

Additional observations from a re-analysis of the deposited data

How the results depend on the processing

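The direction of the TcMar total, of its 3 large families and of each position held under every alternative run on them. TMM scaling and opposite-strand scaling were not run on these sums. The TcMar total on the opposite strand had a log2 difference of 0.26, against 0.24 on the own strand. Left-out libraries gave log2 differences of 0.20 to 0.28 for the total, 0.03 to 0.06 against hAT and 0.03 to 0.10 against other TE loci. Divided by the counts of all other TE loci, the log2 differences became 0.0708 for TcMar, 0.0531 for Mariner, 0.0634 for Tc2, 0.0734 for Tigger, 0.0939 for TcMar?, 0.0437 for loci outside genes, 0.0114 for exons, 0.168 for introns and 0.0732 for antisense loci, and Mariner, Tc2, exonic, antisense and outside loci then overlapped. Gene spans of GENCODE 44, an alternative chosen after seeing the data, changed no direction. With at least 30 counts per locus the difference against hAT was 0.0807. The family named only TcMar gave 1.14 with unique counts. TcMar? gave 1.29 with unique counts, 0.32 without the 10 most abundant loci and -1.76 to 0.90 with a library left out.

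No TcMar locus was called in 13 of the alternatives. With at least 100 counts 1 was called (HSMAR1 in FGD5-AS1, adjusted p = 0.0447 by edgeR), or 0.680% against 0.942% of all tested loci. With unique counts 1 was called (MADE2 in PTPN14, adjusted p = 0.0389 by edgeR), or 0.304% against 0.300%. Of TcMar subfamilies, 0 were called with TMM scaling, opposite-strand scaling, DESeq2 or the replicate block, against 0.112% to 0.783% of all subfamilies. With unique counts 8 were called (11.1%, against 6.65% of all subfamilies), and on the opposite strand 10 (13.9%, against 13.1%). Without Z18trunc 1, 6 were called (8.33%, against 9.43%), and without Z18trunc 3, 4 were (5.56%, against 1.96%). Without Clover 3, 1 was called (1.39%, against 0.684%). Without Clover 1, Clover 2 or Z18trunc 2, 0 were called (against 0.343%, 0.343% and 1.49%). The cause was not tested. The replicate numbers did not pair the samples (correlations of same-numbered libraries 0.0037, -0.020 and -0.030). In the block fit, 17 TcMar subfamilies (23.6%) rose with an unadjusted edgeR p under 0.05, against 17.7% of all subfamilies. None fell in either set. Loci without overlap numbered 95 with a value in all 6 libraries and 59 with at least 30 counts, since fewer loci entered. No TcMar-derived gene was called under any alternative.

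Directions changed for some named items, none of them called. With TMM scaling, log2 values became -0.0262 for Tigger5b in SREBF2, -0.0655 for MER2, -0.0896 for Tigger19b and -0.11 for MARNA, and with DESeq2 -0.0235, -0.0669, -0.0898 and -0.11. With opposite-strand scaling they became -0.0181 for HSMAR2 in THAP9-AS1, -0.0021 for Tigger10 in TOMM20, -0.0709 for Tigger4b in SEPTIN10, -0.13 for Tigger5b in SREBF2, -0.14 for MER2, -0.17 for Tigger19b, -0.18 for MARNA and -0.0665 for HSMAR2. Kanga2_a in POGK was 0.0196 with the block and Tigger10 in JRK 0.0188 with unique counts. With a library left out, values ran from -0.16 to 0.07849 for Tigger19b in BIRC5, from -0.16 to 0.02109 for Tigger19b in KRT74, from -0.68 to 0.48 for Tigger19b in JRKL, from -0.30 to 0.34 for Kanga2_a in POGK, from -0.16 to 0.15 for Tigger10 in JRK, from -0.0504 to 0.02005 for CENPB, from -0.70 to 0.28 for TIGD1, from -0.18 to 0.17 for TIGD3. Of the other values of named items under these alternatives, 466 kept their direction and their side of the threshold. Another 16, all of Tigger1 or Kanga1, lost a call, and 4 gained one. Any value without an adjusted p from DESeq2 was compared by direction alone and, if that held, counted among the 466.

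Of 10818 loci with own-strand counts, 427 reached the 30 counts needed for the single-locus test. Sums compared by exact permutation cannot reach a p below 0.1 with 3 libraries per group.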
